A study of Mus musculus with 4 samples.

Results

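The 10 genes described here are markers of the trophectoderm, the outer epithelium of the blastocyst, chosen by name from 24428 gene symbols. They are the transcription factor genes Cdx2, Elf5, Tfap2a, Tfap2c, Hand1, Gata2 and Gata3 and the keratin genes Krt7, Krt8 and Krt18. They were measured in 4 poly(A) RNA-seq libraries of bulk mouse embryonic stem cells (129SvEv background, passage 15 to 20). Every library comes from cells with floxed Smarca4 and a tamoxifen-dependent CreER recombinase, grown with 15% serum and LIF. The cells received 0.8 uM 4-hydroxytamoxifen (n = 2) or ethanol (n = 2) for 48 h, and were harvested 72 h after the start. All 4 libraries carry the label of acute Smarca4 deletion, so the groups follow the titles and the treatment labels. A tamoxifen-treated culture without floxed Smarca4 was not analysed here, so deletion, active Cre and the drug cannot be told apart. Whether libraries of a group are separate cultures is not stated. The p-values therefore rest on the spread of these libraries alone, which may be technical.

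The trophectoderm forms the placenta. In the mouse embryo, TEAD4 with its co-activator YAP switches on Cdx2 in outer cells, and CDX2 represses the stem cell factor gene Pou5f1. GATA3 acts beside CDX2, while ELF5, TFAP2C and EOMES maintain trophoblast stem cells. HAND1 is needed for trophoblast giant cells, and keratins 8 and 18 pair into the first intermediate filaments of the embryo. Stem cells derived from the inner cell mass normally keep this programme low. Most of these genes also act elsewhere, Hand1 and Gata2 in mesoderm and blood and Tfap2a, Gata3 and keratins in surface ectoderm. Smarca4 encodes BRG1, an ATPase of the BAF chromatin remodeling complexes.

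Smarca4 had 968 and 1226 reads in the tamoxifen libraries, against 5042 and 10649 in the ethanol libraries (log2 fold change -2.43 ± 0.17, SE; edgeR quasi-likelihood test, adjusted p = 1.08e-05). Reads from exons that stay after deletion count too, so this is no measure of intact transcript. Libraries held 13458463 to 27086142 reads in genes. Levels below are TMM-normalised CPM, and 3 reads correspond to 0.115 to 0.212 CPM. In bulk RNA a changed number of cells of one kind and a changed amount of RNA per cell cannot be told apart. The stem cell genes Pou5f1 (0.18 ± 0.17 log2), Sox2 (-0.12 ± 0.15) and Nanog (0.37 ± 0.17) did not pass the test (adjusted p = 0.411, 0.553 and 0.0907, edgeR). With GC correction Pou5f1 turned to -0.31 and was not called (adjusted p = 0.218, edgeR). Some alternative fits given in the closing section called Pou5f1 lower. Nanog passed once GC content was corrected for (0.69), and also without ethanol replicate 1 (0.49) or with total counts (0.49).

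Of the 10 markers, Tfap2a, Hand1, Gata2, Krt8 and Krt18 rose with tamoxifen, Krt7 fell, and Tfap2c and Gata3 did not pass the test. Cdx2 and Elf5, the factors most closely tied to trophoblast identity, had too few reads to be tested. Among all 14479 tested genes 44.5% were called, 21.5% higher and 22.9% lower (edgeR, adjusted p under 0.05). DESeq2 called 4 of the markers higher and 0 lower (1 lower at an unadjusted p under 0.05), against 15.9% and 19.5% of the genes it tested. The median log2 fold change was 0.73 over the 8 tested markers and -0.01 over all tested genes. Both tamoxifen libraries lay above both ethanol libraries for 6 of the 8 and below them for 1, while 74.0% of all tested genes had groups that did not overlap. The 8 markers passed a filter on low counts, so they do not stand for all 10. Markers of fibroblasts were higher in the same libraries, 17 of 23 tested, with 0 lower. With GC correction 18 were called higher and 0 lower (3 lower at an unadjusted p under 0.05), against 10.1% and 9.99% of all tested genes. The median of the fibroblast markers was 0.81, and 0.91 with GC correction. Their part in these results was not tested. The 24 fibroblast genes summed to 1680 and 1826 CPM in the tamoxifen libraries and to 922 and 814 CPM in the ethanol libraries, with no gene at 0 in all libraries.

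The promoters of the 3 keratin genes are shown because Krt8 and Krt18 are neighbours that rose together, while Krt7, in the same keratin cluster on chromosome 15, fell. Krt8 and Krt18 lie on opposite strands with no protein-coding gene between them in GENCODE M21, and their RefSeq start sites are 23.9 kb apart. The start of Krt7 is 592 kb from that of Krt8. Each sequence runs 5′ to 3′ on the gene's own strand, from 250 bases before the RefSeq start site to 50 bases from it, in build GRCm38.p6. Capitals mark matches to the motifs named after the sequences.
Krt8 (chr15:102004293-102004592, minus strand): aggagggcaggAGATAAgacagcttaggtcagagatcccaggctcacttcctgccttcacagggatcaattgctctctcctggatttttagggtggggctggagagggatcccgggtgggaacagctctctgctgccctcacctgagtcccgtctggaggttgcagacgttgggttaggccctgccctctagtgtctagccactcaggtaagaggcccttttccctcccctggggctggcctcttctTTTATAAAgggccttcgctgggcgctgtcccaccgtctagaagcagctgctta
Krt18 (chr15:102027966-102028265, plus strand): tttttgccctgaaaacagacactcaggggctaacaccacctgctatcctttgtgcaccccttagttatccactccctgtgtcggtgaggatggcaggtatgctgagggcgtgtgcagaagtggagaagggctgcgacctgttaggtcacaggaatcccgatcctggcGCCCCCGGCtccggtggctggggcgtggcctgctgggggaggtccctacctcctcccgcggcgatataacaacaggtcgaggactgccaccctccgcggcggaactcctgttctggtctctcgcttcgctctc
Krt7 (chr15:101412153-101412452, plus strand): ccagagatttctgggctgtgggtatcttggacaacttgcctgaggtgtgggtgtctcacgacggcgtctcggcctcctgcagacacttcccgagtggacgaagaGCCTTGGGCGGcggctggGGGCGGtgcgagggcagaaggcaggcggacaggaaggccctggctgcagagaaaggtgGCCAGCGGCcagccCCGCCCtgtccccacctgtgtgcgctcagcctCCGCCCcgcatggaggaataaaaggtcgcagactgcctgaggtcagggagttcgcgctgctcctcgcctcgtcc

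The motifs were searched on both strands in all 32851 promoter windows of the RefSeq table. Krt8 held the letters of a TATA box (TATAAA, in 13.6% of windows), matched on both strands by overlapping letters, and a GATA motif (AGATAA, 11.2%). The TATAAA matches began at offsets -3 and -1 from the RefSeq start site, so they spanned that site. Krt18 held 1 AP-2 motif (GCCNNNGGC, 16.6%). Krt7 held 2 AP-2 motifs and 4 GC boxes (GGGCGG, 35.7%), and 1 AP-2 motif overlapped a GC box. No keratin window held the TEAD motif (GGAATG, 14.7%) or the AP-1 motif (TGANTCA, 7.81%). The windows had 6 CpG pairs for Krt8, 17 for Krt18 and 21 for Krt7, against a median of 7 over all windows. A match is a description of letters and not a bound site. The table held windows for 8 of the 10 markers. Hand1 and Tfap2c had no entry.

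Keratins 8 and 18 formed the largest part of the marker RNA. Krt18, the type I partner, had 165 and 184 CPM in the tamoxifen libraries, against 104 and 117 CPM in the ethanol libraries. Krt8, the type II partner, had 76.0 and 72.3 CPM with tamoxifen, against 42.8 and 42.1 CPM with ethanol. For both genes each tamoxifen library lay above each ethanol library, and the gap exceeded the spread within groups. Krt8 rose 1.75-fold (log2 fold change 0.80 ± 0.14, adjusted p = 0.00104, edgeR) and Krt18 rose 1.58-fold (0.66 ± 0.15, adjusted p = 0.00410). With GC correction neither passed (Krt8 0.35, adjusted p = 0.0948; Krt18 0.25, adjusted p = 0.266), and Krt18 also missed the threshold without tamoxifen replicate 2 (0.58, adjusted p = 0.0538). The level of Krt18 per kb of transcript was 2.95 and 3.47 times that of Krt8 in the tamoxifen libraries and 3.32 and 3.77 times in the ethanol libraries, so the ratio overlapped between groups. GENCODE names 1 pseudogene of Krt8, Krt8-ps, and reads shared with it are uncertain.

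Krt7, a type II keratin of simple epithelia and of trophoblast, moved the other way. It had 3.82 and 4.20 CPM in the tamoxifen libraries, against 6.38 and 7.02 CPM in the ethanol libraries. The groups did not overlap, and the counts were 54 and 75 reads with tamoxifen against 98 and 183 with ethanol. Krt7 fell 1.67-fold (-0.74 ± 0.21 log2, adjusted p = 0.0129, edgeR; -0.86 with GC correction). The call ended with DESeq2 (-0.75, adjusted p = 0.0638), without tamoxifen replicate 1 (-0.68, adjusted p = 0.0900) and without tamoxifen replicate 2 (-0.81, adjusted p = 0.0504), at much the same size. Per kb, Krt8 stood at 41.6 and 36.0 times Krt7 in the tamoxifen libraries and at 14.0 and 12.5 times in the ethanol libraries. The lengths used were 4094 bases for Krt7 and 1958 for Krt8, from the longest coding transcript of each. A shorter Krt7 transcript would lower these ratios, and which transcripts the cells use was not tested.

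Keratins outside the marker list were counted in the same way. Of 16 further keratin genes, 10 had too few reads to test, 3 of the 6 tested fell and 0 rose (0 higher and 3 lower also at an unadjusted p under 0.05; DESeq2 called 0 higher and 2 lower), against 21.5% higher and 22.9% lower over all tested genes. Krt19, a type I keratin of simple epithelia and trophoblast, had 17.5 and 19.8 CPM with tamoxifen, against 30.1 and 42.1 CPM with ethanol. It fell by 0.95 ± 0.18 on the log2 scale (adjusted p = 0.00168, edgeR), Krt42 fell by 1.50 ± 0.20 (adjusted p = 0.000218) and Krt17 by 0.77 ± 0.23 (adjusted p = 0.0167). With GC correction the values were larger, -1.45 for Krt19, -2.09 for Krt42 and -1.33 for Krt17. Krt17 was not called by DESeq2 (-0.78) or without tamoxifen replicate 1 (-0.66). Epidermal Krt5 had 0 and 1 reads in the tamoxifen libraries and 3 and 0 in the ethanol libraries.

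**Figure D1:**
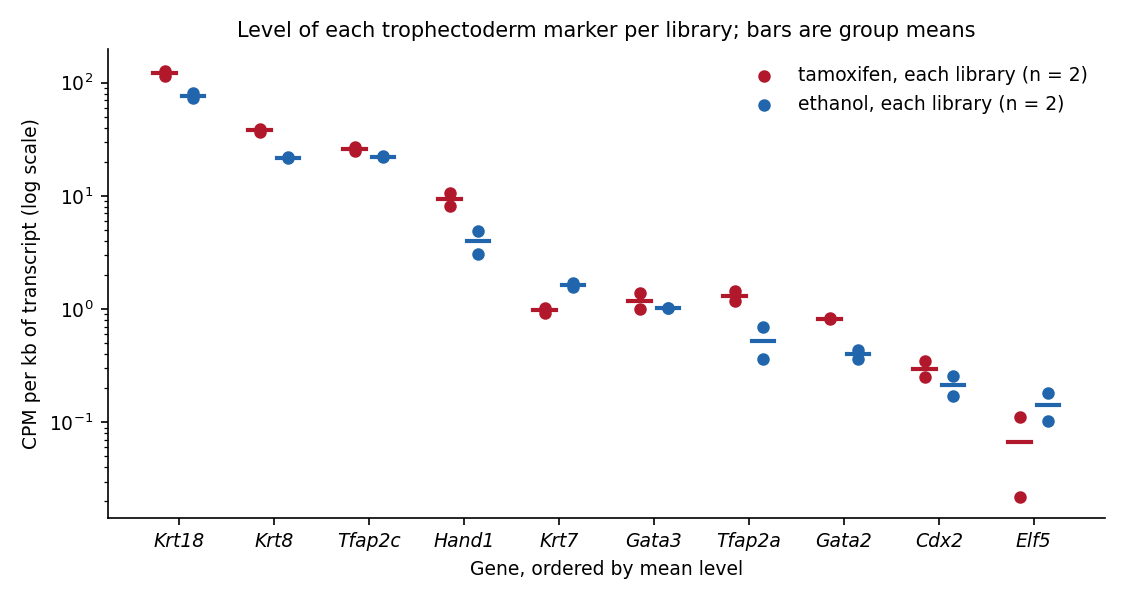
Level of each marker in CPM per kb of transcript (log axis), with tamoxifen libraries in red and ethanol libraries in blue, points for single libraries and bars for group means (n = 2 each). Krt18 averaged 121 CPM per kb with tamoxifen and 76.8 with ethanol, and Cdx2 and Elf5 lie at the low end in both groups.

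Tfap2a, which encodes the AP-2 alpha factor of early ectoderm and trophoblast, showed the largest fold increase among the 8 tested markers, from a low level. It had 5.02 and 4.09 CPM in the tamoxifen libraries (71 and 73 reads), against 2.41 and 1.27 CPM in the ethanol libraries (37 and 33 reads). The groups did not overlap, although the ethanol libraries differed between themselves. Tfap2a rose 2.58-fold (1.37 ± 0.31 log2, adjusted p = 0.00401, edgeR). It was called higher in all 15 alternatives run, with values from 0.92 without ethanol replicate 2 to 1.95 with GC correction and without ethanol replicate 1. A GENCODE gene on the opposite strand within Tfap2a, Gm26688, had 0 to 3 reads a library.

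Its paralog Tfap2c, the AP-2 gamma gene that trophoblast and germ cells use, was expressed far more strongly and did not pass the test. Tfap2c had 74.4 and 81.1 CPM in the tamoxifen libraries, against 65.5 and 66.8 CPM in the ethanol libraries. Both tamoxifen libraries were above both ethanol libraries by a small margin (0.23 ± 0.14 log2, adjusted p = 0.196, edgeR). Per kb, Tfap2c stood at 17.3 and 23.2 times Tfap2a in the tamoxifen libraries and at 31.8 and 61.6 times in the ethanol libraries. Of the other AP-2 genes only Tfap2e was tested, and it rose by 1.19 ± 0.36 log2 from 11 and 19 ethanol reads (adjusted p = 0.0171, edgeR). That call ended with GC correction (0.47), with DESeq2 (1.20) and without tamoxifen replicate 1 (1.06).

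Hand1, the basic helix-loop-helix gene of giant cells, extraembryonic mesoderm and heart, had 20.0 and 15.5 CPM in the tamoxifen libraries, against 9.37 and 5.79 CPM in the ethanol libraries. Each tamoxifen library was above each ethanol library, with spread inside both groups. Hand1 rose 2.37-fold (1.25 ± 0.23 log2, adjusted p = 0.00176, edgeR). With GC correction it stayed called at 0.81 ± 0.21 (adjusted p = 0.0169), but not when tamoxifen replicate 1 was also left out (0.60, adjusted p = 0.182). Hand2, its paralog, had 23 and 24 reads with tamoxifen and 14 and 16 with ethanol (0.999 ± 0.379 log2, adjusted p = 0.0478). The Hand2 call ended with DESeq2 (0.97), with GC correction (0.42) and without tamoxifen replicate 1 (0.86), tamoxifen replicate 2 (1.13) or ethanol replicate 2 (0.70).

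Of the GATA factor genes of the list, Gata2 passed the test and Gata3 did not, and the difference between them was not tested. Gata2, used in trophoblast giant cells and blood stem cells, had 2.90 and 2.97 CPM in the tamoxifen libraries, against 1.56 and 1.30 CPM in the ethanol libraries. The groups were apart and the tamoxifen libraries nearly equal, at 41 and 53 reads. Gata2 rose 2.07-fold (1.05 ± 0.28 log2, adjusted p = 0.0102, edgeR), a call that ended with GC correction (0.52, adjusted p = 0.209), with DESeq2 (1.04, adjusted p = 0.0817) and without tamoxifen replicate 2 (1.03, adjusted p = 0.0555). Gata3, which acts beside Cdx2 in outer cells, had 4.45 and 3.19 CPM with tamoxifen, against 3.32 and 3.30 CPM with ethanol. The ethanol values lay between the tamoxifen values (0.20 ± 0.25 log2, adjusted p = 0.545, edgeR). With GC correction neither gene was called (Gata2 0.52 ± 0.28, Gata3 0.26 ± 0.25). Overlapping GENCODE genes 9230102O04Rik and 4930412O13Rik had 0 to 2 reads a library.

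Cdx2, the caudal-type homeobox factor that specifies the trophectoderm, had 8 and 14 reads in the tamoxifen libraries and 9 and 10 in the ethanol libraries, or 0.566 and 0.784 CPM against 0.586 and 0.384 CPM. The groups overlapped. The summed reads gave 1.50 times the ethanol level with tamoxifen, with an exact 95% Poisson interval of 0.774 to 2.93 that covers counting error only. Elf5, the ETS factor that maintains trophoblast stem cells, had 4 and 1 reads with tamoxifen and 4 and 12 with ethanol. Its ratio was 0.404 (0.116 to 1.16), with tamoxifen replicate 2 below 3 reads. No change of either gene was detectable at this depth. With no filter on low counts edgeR gave 0.53 log2 for Cdx2 (adjusted p = 0.508) and -1.25 for Elf5 (adjusted p = 0.268). At most 5.13% of the tested genes had a group mean per kb at or below that of either gene.

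Ordered by level per kb with tamoxifen, Krt18 (121 ± 9.42, SD, n = 2) was followed by Krt8 (37.9 ± 1.34), Tfap2c (26.0 ± 1.59) and Hand1 (9.31 ± 1.69). Then came Tfap2a (1.31 ± 0.19), Gata3 (1.19 ± 0.28), Krt7 (0.979 ± 0.066), Gata2 (0.821 ± 0.014), Cdx2 (0.298 ± 0.068) and Elf5 (0.0669 ± 0.0633). Among these, Gata3 overlapped both Tfap2a and Krt7, while both Tfap2a values lay above both Krt7 values. The place of Krt7 in this order depends on the transcript length used. With ethanol Krt18 (76.8 ± 6.08) again led, and Tfap2c (22.2 ± 0.31) lay slightly above Krt8 (21.7 ± 0.27) in both libraries, a difference that was not tested. Hand1 (3.98 ± 1.33), Krt7 (1.64 ± 0.11), Gata3 (1.03 ± 0.0044), Tfap2a (0.527 ± 0.232), Gata2 (0.401 ± 0.051), Cdx2 (0.214 ± 0.063) and Elf5 (0.142 ± 0.056) came below. Tfap2a and Gata2 overlapped in the ethanol libraries, as did Cdx2 and Elf5. The 10 markers summed to 352 and 368 CPM in the tamoxifen libraries and to 236 and 245 CPM in the ethanol libraries. Krt8 and Krt18 made up 68.4 and 69.6% of that sum with tamoxifen and 62.2 and 64.8% with ethanol.

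**Figure D2:**
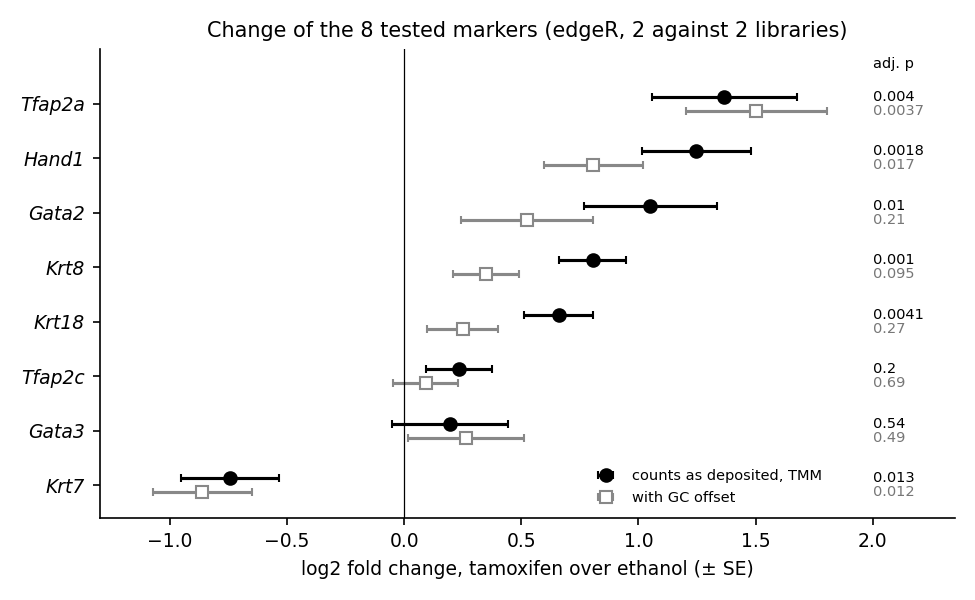
Log2 fold change of the 8 tested markers, tamoxifen over ethanol, with SE bars, from the counts as deposited (filled circles) and with GC correction (open squares), and adjusted p-values at the right. Krt8 moves to 0.35 and Krt18 to 0.25 with the correction, while Tfap2a stays at 1.50 and Krt7 at -0.86.

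The rising markers differed in the GC content of their transcripts, with which fold changes of all genes moved. Hand1 (57.0% GC), Gata2 (58.2%), Krt8 (57.1%) and Krt18 (56.4%) fall among 1439 tested genes with 56.2 to 58.5% GC. Of those genes 51.2% were called higher and 2.85% lower with tamoxifen, and their median log2 fold change was 0.51. Tfap2a (48.7%) and Gata3 (49.7%) fall among 1439 genes with 48.6 to 50.5% GC, whose median was -0.07 and of which 10.4% were called higher. Krt7 (52.3%) belongs to a group with a median of 0.09. With each library's GC trend removed, Tfap2a and Hand1 rose and Krt7 fell, against 10.1% of all tested genes higher and 9.99% lower. The median of the 8 markers was then 0.31, against 0.01 for all tested genes. The cause of the GC trend was not tested.

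**Figure D3:**
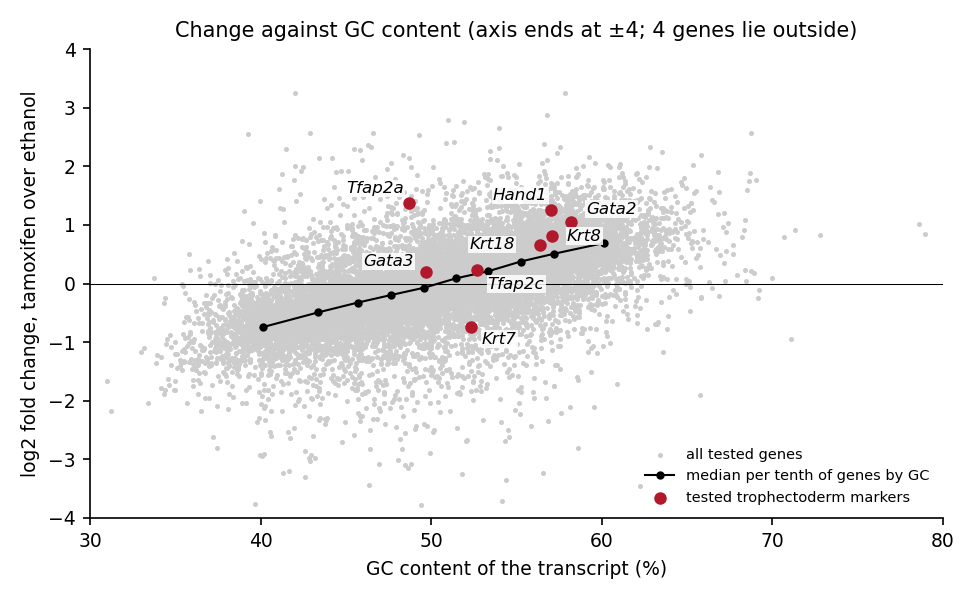
Log2 fold change against GC content of the transcript for all tested genes (grey), with medians of 10 equal groups of genes by GC content (black line) and the 8 tested markers (red). Tfap2a at 1.37 lies far above and Krt7 at -0.74 far below the median line, while Krt8 and Krt18 lie closer to it.

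Genes of the wider trophoblast programme were counted next. Some genes stand in more than 1 of the lists that follow, so their counts are not independent. Of 36 other trophoblast and placenta genes, 30 were tested, of which 8 rose and 6 fell, near the shares of all tested genes (21.5% and 22.9%). With GC correction 9 were called higher and 9 lower, against 10.1% and 9.99% of all tested genes. Their median log2 fold change was -0.03, and -0.06 with GC correction. Sox15, an SRY-box factor gene of trophoblast giant cells and stem cells, rose by 1.50 ± 0.21 log2, at 75.9 and 69.9 CPM with tamoxifen against 32.0 and 19.8 CPM with ethanol (adjusted p = 0.000385, edgeR; 0.96 with GC correction). Ascl2, which spongiotrophoblast needs, fell by 2.10 ± 0.32, at 2.33 and 1.85 CPM with tamoxifen against 11.8 and 6.37 CPM with ethanol (adjusted p = 0.000709). Nr0b1, a nuclear receptor gene that stem cells also express, fell by 2.22 ± 0.20 (adjusted p = 5.99e-05, edgeR), at 18.9 and 21.2 CPM with tamoxifen against 113 and 74.4 CPM with ethanol. Nr0b1 was counted in this list and not among the embryonic stem cell markers below. Eomes, the T-box partner of Cdx2, named here after its values were seen, rose by 0.74 ± 0.15 (adjusted p = 0.00202, edgeR), at 64.3 and 59.5 CPM with tamoxifen against 39.2 and 34.8 CPM with ethanol.

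Late trophoblast genes were hardly detected. Of 10 genes of giant cells, spongiotrophoblast and labyrinth, Prl3b1, Prl7d1, Tpbpa and Ctsq had no read in any library and 3 were tested. Gcm1, the labyrinth factor gene, had 22 and 33 reads with tamoxifen and 11 and 22 with ethanol (1.11 ± 0.35 log2, adjusted p = 0.0221, edgeR). Syna, a syncytin gene, had 29 and 21 reads with tamoxifen and 59 and 65 with ethanol (-0.97 ± 0.34, adjusted p = 0.0349). The Gcm1 call ended without tamoxifen replicate 1 (1.22) or replicate 2 (0.97), that of Syna without tamoxifen replicate 2 (-0.60), without ethanol replicate 1 (-0.67) and with total counts (-0.84), and DESeq2 called neither (1.11 and -0.98). Prl2c2 did not pass (0.02 ± 0.36; 0.69 with GC correction). It was called with GC correction when ethanol replicate 1 was also left out (1.08, adjusted p = 0.0332, edgeR). The 10 genes summed to 5.44 and 4.42 CPM in the tamoxifen libraries and to 6.77 and 4.76 CPM in the ethanol libraries.

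Of 20 regulators of Cdx2 and of the trophectoderm tested, 5 rose and 1, Smarca4 itself, fell, against 21.5% higher and 22.9% lower over all tested genes. With GC correction 3 were called higher and 1 lower, against 10.1% and 9.99% of all tested genes. Lats2, a kinase that inhibits YAP, had 19.2 and 21.1 CPM with tamoxifen and 10.2 and 9.90 CPM with ethanol, and rose by 1.01 ± 0.17 log2 (adjusted p = 0.000708, edgeR). Tead3, a TEAD factor gene, rose by 0.95 ± 0.20 (adjusted p = 0.00243; 0.37 and not called with GC correction). Nf2 (0.56 ± 0.14), Amot (0.40 ± 0.15) and Amotl2 (0.38 ± 0.15), named after their values were seen, encode further inhibitors of YAP and passed (adjusted p = 0.00803, 0.0421 and 0.0468, edgeR). All 3 calls ended without tamoxifen replicate 1 (0.55, 0.45 and 0.28) and without tamoxifen replicate 2 (0.56, 0.35 and 0.48). Those of Amot (0.34 and 0.39) and Amotl2 (0.35 and 0.37) also ended without ethanol replicate 1 and with no filter on low counts, and DESeq2 did not call Amotl2 (0.38). With GC correction Nf2 was not called (0.36), Amot stayed called (0.66) and Amotl2 turned to -0.040. Lats1 (-0.11 ± 0.15, adjusted p = 0.556, edgeR) and Amotl1 (0.27 ± 0.14, adjusted p = 0.132), of the same list, did not pass. Neither was called with GC correction (0.39 and 0.22). Tead4, the factor that activates Cdx2 (0.07 ± 0.15, adjusted p = 0.716), and Yap1 (0.33 ± 0.16, adjusted p = 0.102) did not pass.

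Paralogs of the 10 markers numbered 15, of which 10 were tested, 5 rose and 0 fell (6 higher and 0 lower at an unadjusted p under 0.05; DESeq2 called 2 higher and 0 lower), against 21.5% higher and 22.9% lower over all tested genes. Besides Tfap2e and Hand2, these were the epithelial ETS gene Elf3 (0.76 ± 0.16 log2), the endoderm factor gene Gata4 (0.54 ± 0.14) and the erythroid factor gene Gata1 (1.11 ± 0.34), with adjusted p = 0.00233, 0.00909 and 0.0185 (edgeR). With GC correction none of the 5 was called (Elf3 0.34, Gata4 0.07, Gata1 0.78). In that fit 0 paralogs were lower, and 1 was lower at an unadjusted p under 0.05. The shares of all tested genes were then 10.1% higher and 9.99% lower. The Gata4 call ended without tamoxifen replicate 1 (0.52) or replicate 2 (0.56), and that of Gata1 without tamoxifen replicate 2 (0.55) and with DESeq2 (1.08).

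Other cell types also use several of these genes, and their markers were counted too, against 21.5% higher and 22.9% lower over all tested genes, or 10.1% and 9.99% with GC correction. Of mesoderm and blood markers 2 of 9 tested rose and 0 fell (edgeR; 2 and 0 at an unadjusted p under 0.05; DESeq2 called 0 and 0), with 1 called higher after GC correction, and the 12 genes summed to 38.6 and 39.3 CPM with tamoxifen and 34.8 and 30.6 CPM with ethanol. Of surface ectoderm markers 0 of 6 tested rose and 2 fell (edgeR; 0 and 2 at an unadjusted p under 0.05; DESeq2 called 0 and 0), with 1 called lower after GC correction, and sums of 113 and 132 CPM with tamoxifen against 151 and 150 CPM with ethanol. Of primitive endoderm markers 5 of 14 rose and 1 fell, but with GC correction 1 was higher and 1 lower. Their sums were 4955 and 4731 CPM with tamoxifen against 4394 and 4014 CPM with ethanol. Of embryonic stem cell markers 2 of 10 rose and 0 fell (edgeR; 3 and 0 at an unadjusted p under 0.05; DESeq2 called 2 and 0). With GC correction 4 were higher and 2 lower, the lower ones being Esrrb (-0.53 ± 0.15, adjusted p = 0.0195, edgeR) and Utf1 (-0.71 ± 0.16, adjusted p = 0.00627), named after their values were seen. The stem cell markers summed to 4705 and 4520 CPM with tamoxifen and to 3998 and 3916 CPM with ethanol. No gene of these 4 lists was at 0 in all libraries, and their part in the marker results was not tested.

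**Figure D4:**
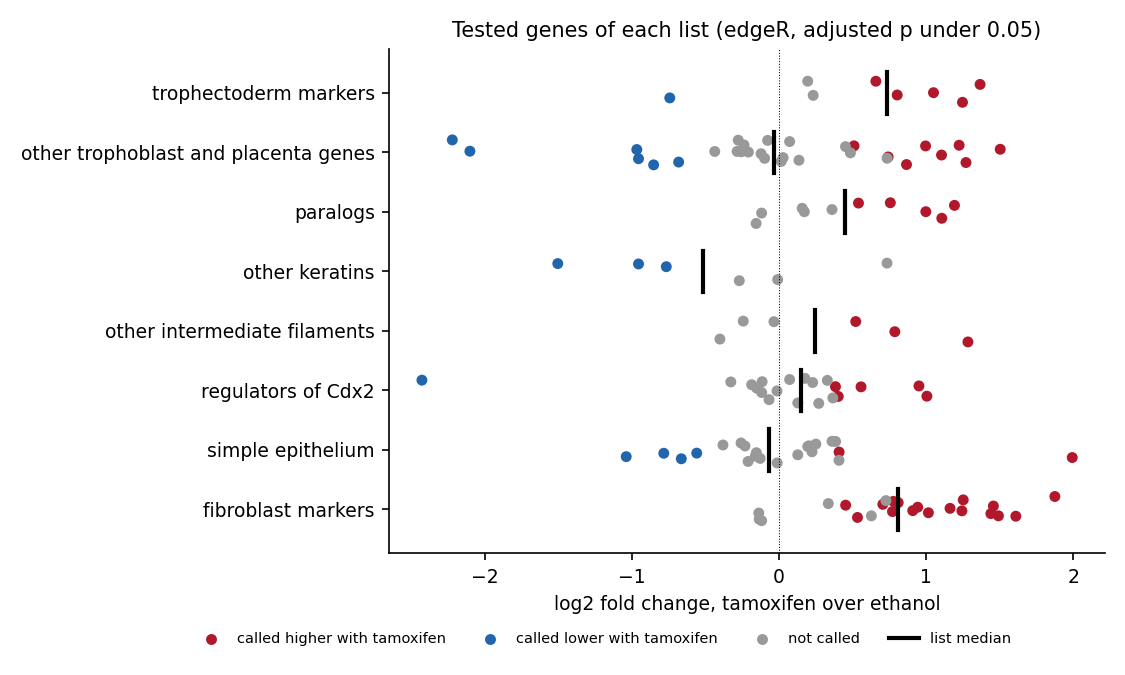
Log2 fold change of each tested gene by list, tamoxifen over ethanol, with genes called higher in red, called lower in blue and not called in grey, and list medians as black bars. The median is 0.73 for the trophectoderm markers, -0.03 for other trophoblast and placenta genes, -0.52 for other keratins and 0.81 for fibroblast markers.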

How the data were processed

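The authors deposited raw read counts for each gene symbol. The submitters' processing notes name build mm9 and list HTSeq, DESeq2, Bowtie 1.1.1 and CASAVA 1.8.2. Neither the role of each nor annotation and strand setting is given in the sources used here, so antisense or overlapping reads cannot be told apart. Lines that name no gene stayed out. No-feature lines held 37.6 and 35.0% of counted reads in the tamoxifen libraries, against 51.7 and 40.8% in the ethanol libraries. Ambiguous lines held 0.889 to 1.05%. TMM factors were 1.05 and 1.04 with tamoxifen and 0.952 and 0.962 with ethanol. What this difference between the groups does to the fold changes was not tested. Counts were tested with edgeR 4.0.16 (R 4.3.3, robust quasi-likelihood, TMM, filterByExpr, treatment only), Benjamini-Hochberg over 14479 of 24428 genes, threshold 0.05, and SE as the size of the log2 fold change divided by the root of F. GC content and length came from the longest coding GENCODE M21 transcript (GRCm38; 23535 symbols matched directly, 506 by synonym; 99.4% of tested genes). GC correction entered each library's loess trend (span 0.5) as an offset. DESeq2 1.42.0 was an alternative. Tested on simulated data for this comparison (200 of 14479 genes changed), edgeR found 97.1% of genes changed 4-fold, 76.8% changed 2-fold and 34.9% changed 1.5-fold, with 11 false calls. The simulated counts had no GC trend, so they do not give the number of false calls in the real data. Genes of low mean level were not changed in the simulation, and Cdx2 and Elf5 did not enter it. Members, lists and GC correction were chosen with earlier results of these data known. Named genes are all markers, up to 3 of each other list with the smallest adjusted p where they bear on a marker, and checks. Intervals cover counting error only.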

Additional observations from a re-analysis of the deposited data

How the results depend on the processing

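Against 5 markers higher and 1 lower, GC correction gave 2 higher, and GC correction with the replicate block gave 3 higher, with Krt8 the third. DESeq2 gave 0 lower and 4 higher (1 lower and 5 higher at an unadjusted p under 0.05). Leaving out 1 library gave 3 to 5 higher and 0 to 1 lower, and with GC correction 1 to 2 higher and 0 to 1 lower. The count of 3 came without tamoxifen replicate 2, and those of 0 lower without either tamoxifen library. RLE factors, total counts and no filter on low counts gave 5 and 1. Total counts moved the median of all genes to 0.12 and split their calls into 4082 higher and 2519 lower, against 3119 and 3322. GC correction reduced these to 1461 and 1447, and GC correction with the replicate block gave 2579 and 2461. The number of all genes called also changed when 1 library was left out. Counts of called markers are therefore not directly comparable between settings. Direction held for each of the 8 tested markers in all 15 alternatives except Gata3 (-0.05 without tamoxifen replicate 1). Lats1, Amotl1, Tead4, Yap1, Esrrb, Utf1 and Des were not part of the comparison of named genes across settings. Among the named genes compared and called in at least 1 setting, Prl2c2 turned sign in settings that did not call it (-0.26 without tamoxifen replicate 1, -0.34 without ethanol replicate 2). The others that turned sign were Pou5f1, Lmnb2 and Amotl2. Pou5f1 turned to -0.31 with GC correction, where it was not called. It was called lower with GC correction and the replicate block (-0.30) and with GC correction and without ethanol replicate 1 (-0.53). Lmnb2 turned to -0.14 with GC correction and without tamoxifen replicate 2. Amotl2 turned to -0.040 with GC correction and -0.042 with the block added. With GC correction Amotl2 was also at -0.15 without tamoxifen replicate 1 and -0.12 without ethanol replicate 1. The cause was not tested. The replicate block left 5 markers higher and 1 lower, with 3919 and 4168 of all genes called. It also called Nanog (0.37, adjusted p = 0.00740, edgeR), and with GC correction Elf3 (0.35), Gata1 (0.79) and Nf2 (0.36), whose adjusted p were 0.0320, 0.0194 and 0.0131. Same-numbered libraries deviated together (r = 0.225 across genes), but the labels do not say that a number marks a pair. A lone library, left when 1 is dropped, was taken to vary as the other group does. The 2 against 2 design allows no exact permutation p below 0.333. Depth limits Cdx2 and Elf5.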

Other observations

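Other intermediate filament genes rose in 3 of 6 cases and fell in 0 (edgeR; 1 lower at an unadjusted p under 0.05; DESeq2 called 3 higher and 0 lower), against 21.5% higher and 22.9% lower over all tested genes. With GC correction 2 were higher and 1 lower, against 10.1% and 9.99% of all tested genes. The lower one was the desmin gene Des (-0.82 ± 0.17, adjusted p = 0.00387, edgeR), named after its values were seen. Without the correction Des was at -0.40 and not called. Lmna, the A-type lamin gene, averaged 86.4 ± 14 CPM with tamoxifen and 35.4 ± 4.16 CPM with ethanol (SD, n = 2; 1.28 ± 0.16 log2, adjusted p = 0.000182, edgeR; 0.70 with GC correction). Vim, the vimentin gene of mesenchymal cells, rose by 0.79 ± 0.16 (adjusted p = 0.00197). Lmnb2 rose by 0.52 ± 0.16 (adjusted p = 0.0205), a call that ended with GC correction (0.04) and without tamoxifen replicate 2 (0.33).

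Of 22 genes of simple epithelium, the tissue type that keratins 8 and 18 mark, 2 rose and 4 fell. Over all tested genes 21.5% rose and 22.9% fell. With GC correction 2 of the 22 were higher and 5 lower, against 10.1% and 9.99% of all tested genes. The claudin gene Cldn3 had 31.0 and 37.3 CPM with tamoxifen and 10.9 and 6.60 CPM with ethanol (1.99 ± 0.22 log2, adjusted p = 0.000141, edgeR; 1.23 with GC correction). Atp1b1, a sodium pump subunit gene of the blastocyst epithelium, fell by 1.04 ± 0.15 log2 (adjusted p = 0.000310), and the desmoglein gene Dsg2 fell by 0.78 ± 0.14 (adjusted p = 0.00118).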
